A study of Mus musculus with 10 samples.

Results

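The glutathione, peroxidase and antioxidant genes of the mouse left atrium are the subject here, compared between pressure overload and a sham operation. The rule takes genes by symbol alone: every gene whose symbol begins with a glutathione S-transferase (GST) class prefix, every numbered glutathione peroxidase (Gpx) and peroxiredoxin (Prdx), and 17 further genes of superoxide dismutation, catalase, thioredoxin, glutathione synthesis, heme breakdown, quinone reduction and metallothionein. It holds 53 of the 48397 symbols in the count tables, of which 46 had enough reads to be tested. The other 7 were Gpx2, Gpx6 and Gstt4 with no read in any library, Gpx5 with 1 read, Gsta2 with 6, Gstm3 with 11 and the pseudogene Gstm2-ps1 with 113, each summed over 10 libraries.

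The study has 5 libraries per group. All came from wild-type mice operated on at 2 months of age and sampled 2 weeks later, and the series' design text gives the animals as male C57BL/6J. The TAC group had transverse aortic constriction, a surgical narrowing of the aorta that raises the pressure the heart works against, and the Sham group had a sham procedure. The sample labels name the tissue as left atrium and the library kit as Nugen Trio, a low-input kit with amplification, whereas the design text names the left appendage and a TruSeq kit. Neither says that the libraries of a group came from separate mice, so the p-values measure the spread between these libraries, which may be technical.

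Superoxide leaks from mitochondria and is made by NADPH oxidases. Superoxide dismutases turn it into hydrogen peroxide, which catalase, glutathione peroxidases and peroxiredoxins then remove; glutathione peroxidases draw on glutathione, and most peroxiredoxins draw on thioredoxin. GST enzymes join glutathione to reactive lipid products and foreign compounds. The cells keep these systems in separate compartments, with different genes for the cytosol, the mitochondria, the secretory pathway and the space outside the cell, and the heart, with its dense mitochondria, holds much of the mitochondrial forms. Many of the genes are known targets of the transcription factor NRF2, which binds the antioxidant response element, and the metallothioneins are known targets of MTF1, which binds metal response elements.

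Library totals ran from 17117306 to 43956384 reads assigned to genes, the lowest 2 being Sham libraries 1 and 2. Values are CPM, each gene's count relative to all gene counts of its library, scaled by TMM factors, and a gene was called changed at a Benjamini-Hochberg adjusted p under 0.05 in edgeR's quasi-likelihood test over all 15175 tested genes, the source of each adjusted p below. With scaling by library size alone the middle of all genes' log2 fold changes lay 0.36 higher than under TMM (0.37 against 0.01), so directions are relative to that shift. The tissue's cell markers moved with the operation. All 10 cardiomyocyte markers fell (summed level 76152 to 90547 CPM in Sham, 31677 to 44390 in TAC), while 9 of 10 macrophage markers rose (368 to 638 against 852 to 1383 CPM) and 8 of 8 cycling-cell markers rose (2.96 to 21.5 against 138 to 526 CPM). Of 10 fibroblast markers 6 rose and 2 fell (2544 to 3255 against 5758 to 12903 CPM), of 10 smooth muscle and pericyte markers 7 rose and 1 fell (459 to 552 against 777 to 1050.3 CPM), and of 10 endothelial markers 5 rose and 1 fell (1145 to 1746 against 1340 to 1992 CPM, overlapping). All 5 tested red-cell markers rose (136 to 300.3 against 298 to 2555 CPM, the top in TAC library 3). Of 6 tested adipocyte markers 1 rose and 5 fell (156 to 227 against 171 to 290 CPM, overlapping); Fabp4, which rose from a mean of 154 to 227 CPM, makes up most of that sum, while Plin1 fell from 7.25 to 0.476 CPM and Cidec from 8.16 to 0.743 CPM. Also, 1 of 9 mesothelial markers rose (114 to 380.1 against 162 to 413 CPM), and 1 of 2 tested lymphocyte markers rose (0.863 to 3.41 against 1.6 to 4.97 CPM). No marker was at 0 in every library. TAC library 1 held the highest cardiomyocyte sum of its group, 44390 against at most 36529 CPM, and stands apart below. In bulk tissue fewer cells of a type and less RNA per cell cannot be told apart, and the part these markers have in the results was not tested.

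The 5 tested glutathione peroxidases rose and 13 of 18 glutathione S-transferases fell (9 of 18 with library size alone). The mitochondrial Sod2, Prdx3 and Txn2 fell, while the secreted Sod3, Prdx4 of the secretory pathway and cytosolic Txn1 rose. These calls held with library size alone. Under TMM other cytosolic forms of these families did not rise. Sod1 fell (not called with library size alone), and Prdx1, Prdx2 and Txnrd1 were not called. Of the 46 tested genes, 10 rose and 23 fell after TAC, and 13 were not called. That is 71.7% called, against 56.8% of all tested genes; 28.9% of all genes rose and 27.9% fell, against 21.7% and 50% of these. Their median log2 fold change was -0.36, against 0.01 over all genes. A fall of at least 1 on the log2 scale was seen in 11 (8.10% of all genes) and a rise of at least 1 in 3 (11.7% of all genes). The CPM of both groups did not overlap for 23 of the 46, where 41.7% of all genes did not. Scaled by library size alone the counts were 15 higher and 13 lower, and without TAC library 1 they were 12 and 27. Though the rule uses symbols alone, the members were chosen with earlier results of these data known. The shares are therefore given as a description.

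**Figure D1:**
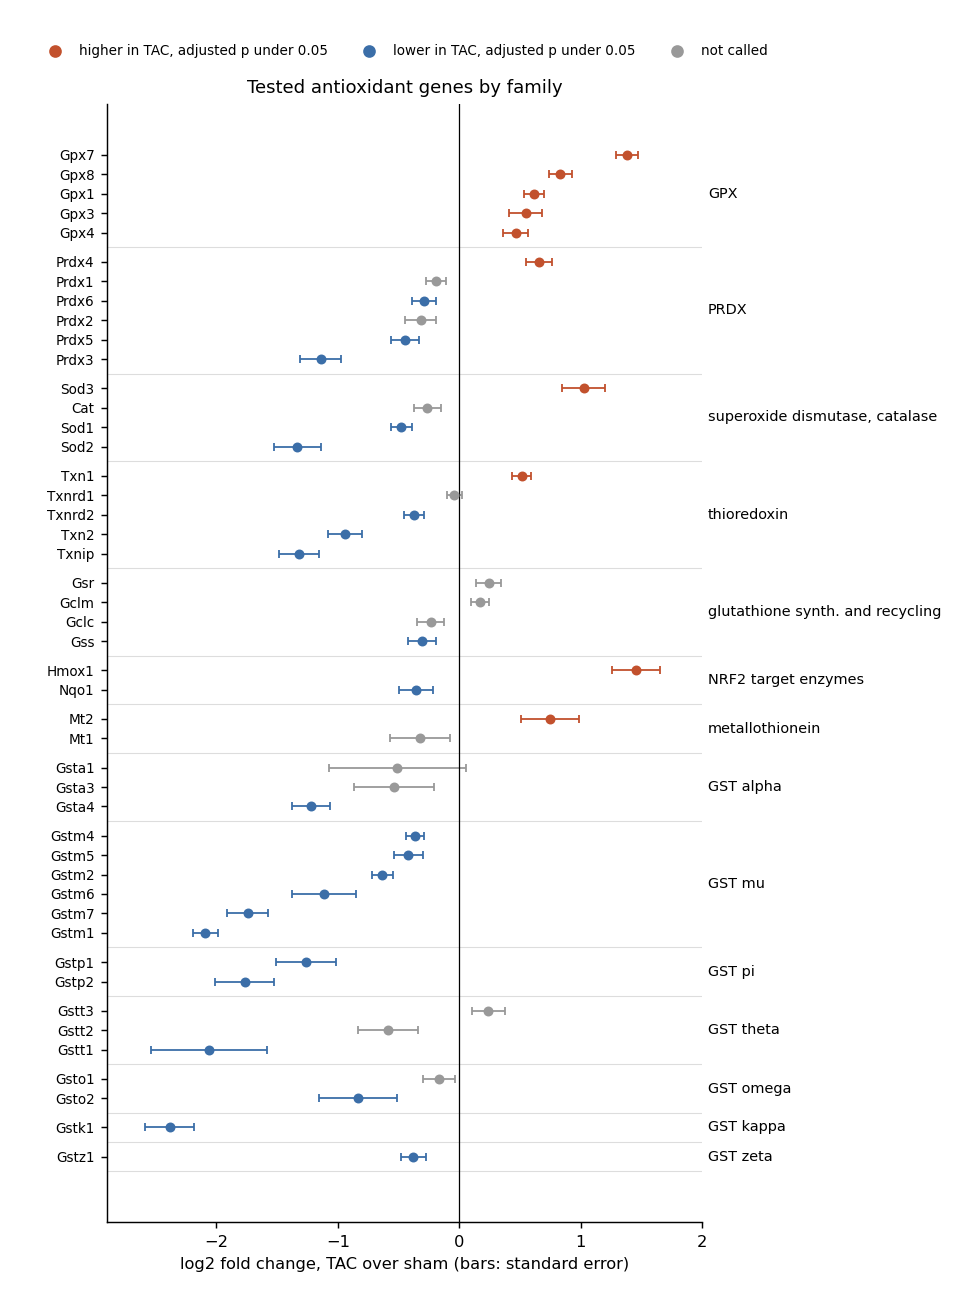
Log2 fold change, TAC over Sham, of the 46 tested genes grouped by family, with bars of 1 standard error (5 libraries per group). All 5 glutathione peroxidases lie right of 0 and, of the 18 GST genes, only Gstt3 does; the longest falls are Gstk1, Gstm1 and Gstt1.

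All 5 tested glutathione peroxidases rose, where 28.9% of all tested genes did, with a median log2 fold change of 0.62. None fell at an unadjusted p under 0.05, by DESeq2 or by limma voom. Their summed level went from 3934 ± 291 CPM to 5772 ± 827 CPM (SD, n = 5 each). Gpx3 made up 91.1% of that sum in Sham and 90.5% in TAC. Per kilobase of exon Gpx3 was the most abundant of the 53 genes, at 1976 ± 146 CPM per kb in Sham and 2889 ± 466 in TAC. The next in Sham were Txnip at 202, Gstm1 at 174, Prdx3 at 173 and Prdx5 at 125 CPM per kb, and in TAC Gpx4 at 146 and Gpx1 at 128. These lengths are of all exons of a gene joined, and the order below Gpx3 depends on that: per kilobase of the longest transcript the next in Sham were Txnip at 223, Prdx2 at 214, Gstm1 at 198 and Gpx4 at 183 CPM per kb, and in TAC Gpx4 at 253, with Prdx2 and Gpx1 both at 172.

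Gpx3 encodes the plasma glutathione peroxidase, a secreted selenoprotein (chromosome 11, 54902453 to 54910377; this and all positions are on GRCm38, from GENCODE M21). It stood at 3277, 3593, 3998, 3464 and 3583 CPM in Sham libraries 1 to 5 and 3839, 5733, 5715, 5857 and 5046 CPM in TAC libraries 1 to 5. TAC library 1 lay below Sham library 3, and the other 4 TAC libraries lay above every Sham library. The log2 fold change was 0.55 ± 0.13 (adjusted p = 0.0043). Among all genes it ranked 23rd to 30th by count in Sham and 12th to 21st in TAC, taking 0.291% to 0.347% and 0.401% to 0.673% of gene counts.

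Gpx1, which reduces hydrogen peroxide in the cytosol with glutathione (chromosome 9, 108338903 to 108340343), stood at 108, 127, 126, 121 and 118 CPM in Sham libraries 1 to 5 and 171, 213, 188, 169 and 178 CPM in TAC libraries 1 to 5. Every TAC library lay above every Sham library. The difference was 0.62 ± 0.08 (adjusted p = 6.6e-05) on the log2 scale, 1.54-fold higher. Gpx4, which reduces lipid hydroperoxides in membranes and guards against ferroptosis (chromosome 10, 80047166 to 80056439), stood at 169.8, 167, 219.8, 172 and 182 CPM in Sham libraries 1 to 5 and 302, 245, 233, 224 and 252 CPM in TAC libraries 1 to 5. Sham library 3 was the highest of its group yet below the lowest TAC library. Gpx4 rose by 0.46 ± 0.10 (adjusted p = 0.0025), but 61.7% of its 50-base stretches also occur in the pseudogene Gpx4-ps2, so its counts are uncertain.

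Gpx7 and Gpx8 are peroxidases of the endoplasmic reticulum, where disulfide bonds of secreted proteins form. Gpx7 (chromosome 4, 108400390 to 108406961) stood at 15.1, 12.3, 13.6, 12.4 and 13.1 CPM in Sham libraries 1 to 5 and 32.6, 40.4, 33.4, 31.5 and 35.1 CPM in TAC libraries 1 to 5. Every TAC library lay far above the highest Sham library, and the rise was 1.38 ± 0.09 (adjusted p = 9.2e-07), 2.60-fold. Gpx8 (chromosome 13, 113042753 to 113046410) stood at 34.5, 37.1, 36.8, 33.5 and 38.6 CPM in Sham libraries 1 to 5 and 61.5, 81.9, 60.0, 61.2 and 57.0 CPM in TAC libraries 1 to 5. TAC library 2 stood above the rest of its group, and all 5 lay above Sham. Its rise was 0.83 ± 0.10 (adjusted p = 3.2e-05), 1.78-fold.

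**Figure D2:**
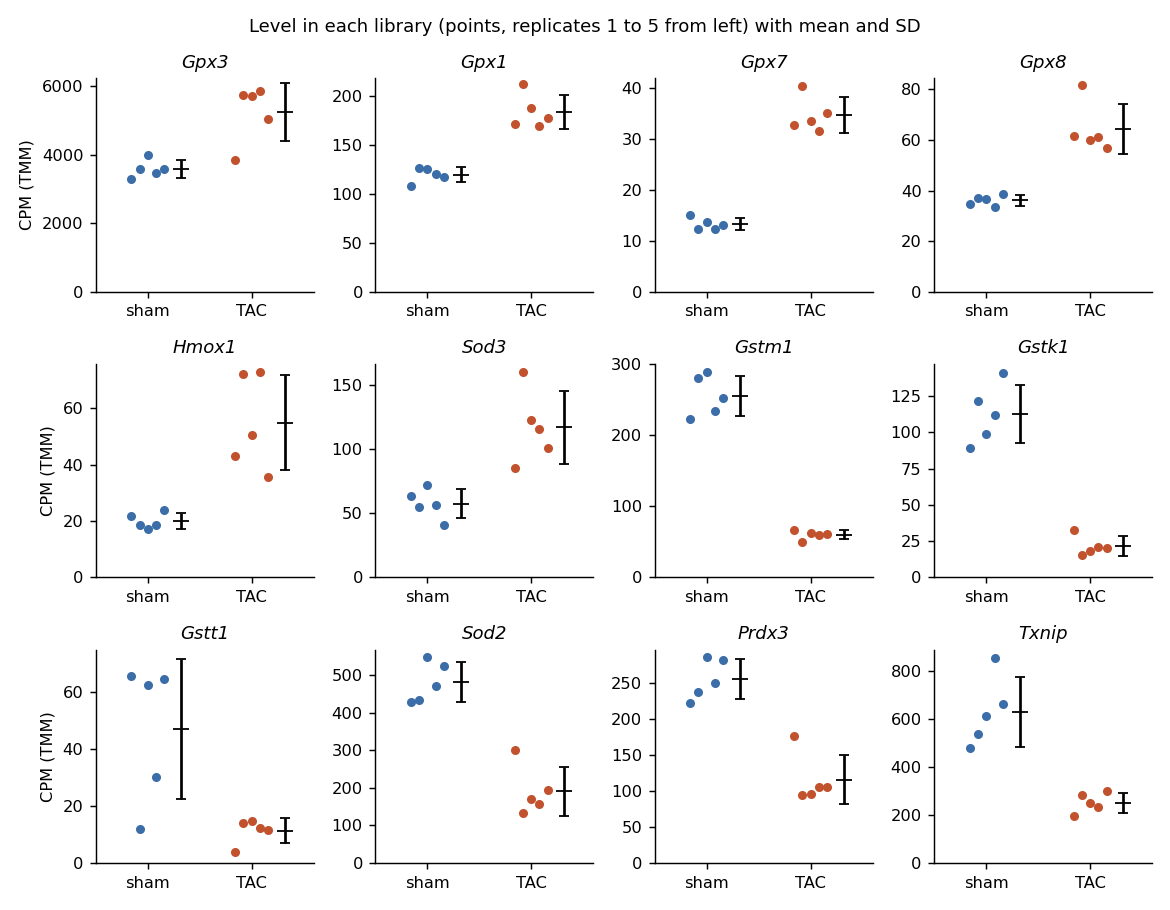
CPM of 12 genes in each library, with the group mean and SD (5 Sham and 5 TAC libraries; each panel has its own axis from 0). Gpx1, Gpx7, Gpx8, Hmox1 and Sod3 are higher in every TAC library than in any Sham library, Gstm1, Gstk1, Sod2, Prdx3 and Txnip are lower in every one, and Gpx3 and Gstt1 overlap.

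Superoxide dismutases differed by compartment. Sod2, the manganese enzyme of the mitochondrial matrix (chromosome 17, 13006846 to 13040063), stood at 429, 435, 548, 472 and 526 CPM in Sham libraries 1 to 5 and 302, 132, 171, 157 and 194 CPM in TAC libraries 1 to 5. All TAC libraries lay below Sham, library 1 nearest to it. Sod2 went from 482 ± 53.4 to 191 ± 65.6 CPM (SD, n = 5 each), a log2 fold change of -1.33 ± 0.20 (adjusted p = 0.00015). Sod1, the copper-zinc enzyme of the cytosol (chromosome 16, 90220754 to 90226329), stood at 161, 190.2, 172, 168 and 197 CPM in Sham libraries 1 to 5 and 144, 124, 119.7, 117 and 134 CPM in TAC libraries 1 to 5. These groups did not overlap either, but the fall was smaller, -0.48 ± 0.08 (adjusted p = 0.00052); with library size alone it was not called (adjusted p = 0.2).

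Sod3, the secreted enzyme bound to the extracellular matrix (chromosome 5, 52363791 to 52371418), stood at 63.4, 55.0, 71.9, 56.5 and 41.0 CPM in Sham libraries 1 to 5 and 85.4, 160.5, 123, 116 and 101 CPM in TAC libraries 1 to 5. Each TAC library exceeded each Sham library, TAC library 1 being the lowest of its group. The gene rose by 1.02 ± 0.18 (adjusted p = 0.00052), 2.03-fold. Catalase, the peroxisomal enzyme that breaks down hydrogen peroxide, was not called. Cat measured 135 ± 21.5 to 112 ± 10.5 CPM (SD, n = 5 each), a log2 fold change of -0.26 ± 0.11 (adjusted p = 0.064), and was called lower without Sham library 2, Sham library 4 or TAC library 4 (adjusted p = 0.015 to 0.048). Under library size alone its sign turned.

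Peroxiredoxins are abundant thiol peroxidases that thioredoxin recycles. Of 6, Prdx4 rose, Prdx3, Prdx5 and Prdx6 fell and Prdx1 and Prdx2 were not called; with library size alone Prdx1 and Prdx4 were higher and only Prdx3 was lower. Prdx3, the mitochondrial form (chromosome 19, 60864051 to 60874556), stood at 222, 237, 286, 250.3 and 283 CPM in Sham libraries 1 to 5 and 176, 95.1, 96.2, 106 and 106 CPM in TAC libraries 1 to 5. TAC libraries 2 to 5 lay close together, library 1 lay between them and Sham, and no library overlapped. The fall was -1.14 ± 0.17 (adjusted p = 0.00014), 2.21-fold.

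Prdx4, the form of the endoplasmic reticulum (chromosome X, 155323918 to 155340754), stood at 34.5, 36.4, 28.2, 36.0 and 42.1 CPM in Sham libraries 1 to 5 and 53.0, 65.8, 58.1, 49.2 and 53.5 CPM in TAC libraries 1 to 5. All TAC libraries lay above Sham, and the rise was 0.66 ± 0.11 (adjusted p = 0.00033). Prdx5, found in mitochondria, peroxisomes and cytosol (chromosome 19, 6906697 to 6910106), stood at 254, 245, 301, 264 and 267 CPM in Sham libraries 1 to 5 and 258, 179, 174, 179 and 187 CPM in TAC libraries 1 to 5. TAC library 1 lay within the Sham range and the other 4 below it. Prdx5 fell by 0.45 on the log2 scale (SE 0.11, adjusted p = 0.0056), a call lost with library size alone (adjusted p = 0.4); 19.1% of its exon bases overlap Trmt112 on the other strand.

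Prdx6, the 1-Cys peroxiredoxin with phospholipase activity (chromosome 1, 161240112 to 161251219), stood at 126, 139, 157, 148 and 143 CPM in Sham libraries 1 to 5 and 141, 99.9, 118, 103 and 121 CPM in TAC libraries 1 to 5. Again TAC library 1 lay within the Sham range, as did no other. The difference was -0.29 ± 0.10 (adjusted p = 0.026) and was not called without Sham library 3 or 4, or TAC library 2 or 4 (adjusted p = 0.052 to 0.077), and its sign turned with library size alone. The cytosolic forms Prdx1 (280.1 ± 20.9 to 245 ± 22.3 CPM) and Prdx2 (345 ± 26 to 277 ± 59.4 CPM; SD, n = 5 each) had log2 fold changes of -0.19 ± 0.08 and -0.32 ± 0.13, with adjusted p of 0.074 and 0.053. Without TAC library 1 both were called lower (adjusted p = 0.021 and 0.00034), making 5 of 6 peroxiredoxins lower, and without Sham library 1 Prdx2 was (adjusted p = 0.044). With all libraries limma voom called both lower (adjusted p = 0.021 and 0.0035), and Prdx2 was also called lower by DESeq2 (adjusted p = 0.048) and with DESeq2's size factors in edgeR (adjusted p = 0.049). Of Prdx2's exon bases 11.5% overlap Junb and Rnaseh2a on the other strand. Of the 50-base stretches, 23.8% of Prdx2's and 10.9% of Prdx1's occur in other genes or pseudogenes.

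In the thioredoxin system the cytosolic thioredoxin rose, the mitochondrial one fell, and Txnip fell. Txn1, the cytosolic thioredoxin (chromosome 4, 57943373 to 57956411), stood at 59.8, 72.8, 65.7, 56.2 and 64.7 CPM in Sham libraries 1 to 5 and 97.4, 95.4, 92.9, 83.3 and 86.8 CPM in TAC libraries 1 to 5. The groups did not overlap, and the rise was 0.51 ± 0.08 (adjusted p = 0.00022). Txn2, its mitochondrial counterpart (chromosome 15, 77915047 to 77929006), stood at 265, 272, 298, 269.9 and 283 CPM in Sham libraries 1 to 5 and 207, 124, 128, 122 and 141 CPM in TAC libraries 1 to 5. TAC library 1 was nearest to Sham without reaching it, and the fall was -0.94 ± 0.14 (adjusted p = 0.00014), 1.92-fold.

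Txnrd2, the mitochondrial thioredoxin reductase (chromosome 16, 18426384 to 18479073), stood at 18.1, 19.0, 19.9, 20.2 and 20.2 CPM in Sham libraries 1 to 5 and 17.5, 14.2, 14.9, 14.4 and 14.3 CPM in TAC libraries 1 to 5. Both groups were tight, with TAC library 1 just under the lowest Sham library. It fell by 0.37 on the log2 scale (SE 0.08, adjusted p = 0.0021), and with library size alone it was not called (adjusted p = 0.88). Txnrd1, the cytosolic reductase, measured 70.8 ± 4.02 to 68.8 ± 2.91 CPM (SD, n = 5 each), a log2 fold change of -0.04 ± 0.06 (adjusted p = 0.58); with library size alone it was called higher (adjusted p = 0.002).

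Txnip, which binds and inhibits thioredoxin and restrains glucose uptake (chromosome 3, 96557957 to 96561883), also fell. It stood at 480.4, 539, 612, 858 and 663 CPM in Sham libraries 1 to 5 and 195, 284, 249, 232 and 300.3 CPM in TAC libraries 1 to 5. Sham library 4 was the highest, and every TAC library lay below every Sham library. The log2 fold change was -1.32 ± 0.17 (adjusted p = 4.8e-05), 2.50-fold lower. Of its exon bases 19.4% overlap the antisense gene Gm15441, whose reads could be counted in Txnip if strand was not used.

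Ratios of members within a library do not depend on scaling. For 9 pairs the log2 ratio of counts was taken in each library. The pairs were chosen after their values were seen, so the ratios are given as a description, without the p-values of the exact permutation test that was computed for them. Mitochondrial over cytosolic ratios were lower in every TAC library than in any Sham library for Sod2 over Sod1 (1.44 ± 0.17 to 0.53 ± 0.35), Prdx3 over Prdx1 (-0.13 ± 0.09 to -1.12 ± 0.25) and Txn2 over Txn1 (2.12 ± 0.13 to 0.64 ± 0.28; SD, n = 5 each). Txnrd2 over Txnrd1 was lower by less, -1.86 ± 0.10 to -2.20 ± 0.17, with overlap. Secreted Sod3 over Sod1 was higher in every TAC library (-1.65 ± 0.40 to -0.15 ± 0.44), and so was Prdx4 of the endoplasmic reticulum over Prdx1 (-2.99 ± 0.20 to -2.14 ± 0.24). Gpx8 over Gpx1 (-1.73 ± 0.10 to -1.52 ± 0.12) and Gpx3 over Gpx1 (4.90 ± 0.07 to 4.82 ± 0.23) overlapped.

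**Figure D3:**
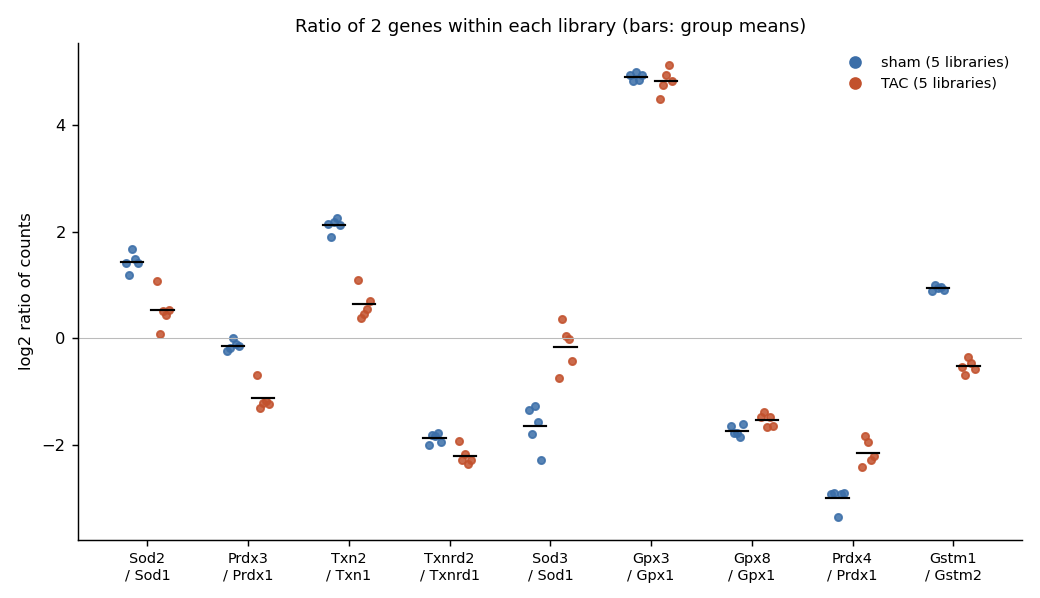
Log2 ratio of counts for 9 pairs of members in each of 5 Sham and 5 TAC libraries. The groups separate for 6 pairs, among them all of Sod2 over Sod1, Prdx3 over Prdx1 and Txn2 over Txn1, where TAC library 1 is the TAC point nearest to Sham.

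Of the 4 genes that make and recycle glutathione only Gss was called. Gclc and Gclm are the catalytic and modifier subunits of glutamate-cysteine ligase, the rate-limiting step of glutathione synthesis; Gss completes the tripeptide and Gsr reduces it again with NADPH. Gclc (16.5 ± 2.52 to 14.0 ± 1.06 CPM), Gclm (28.7 ± 2.02 to 32.3 ± 1.81 CPM) and Gsr (21.3 ± 2.30 to 25.2 ± 3.13 CPM; SD, n = 5 each) were not called, with log2 fold changes of -0.24 ± 0.11, 0.17 ± 0.07 and 0.24 ± 0.10 and adjusted p of 0.081, 0.056 and 0.064. Gclc was called lower without Sham library 2 (adjusted p = 0.039), Gclm higher without Sham library 4 or 5 or TAC library 1, 2 or 4 (adjusted p = 0.031 to 0.048), and Gsr higher without Sham library 1 or 3 or TAC library 1 or 4 (adjusted p = 0.033 to just under 0.05). With all libraries Gclm and Gsr were also called higher by limma voom (adjusted p = 0.041 and 0.023), with upper-quartile factors (adjusted p = 0.018 and 0.034) and with library size alone, where Gclc turned sign without being called.

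Gss (chromosome 2, 155563181 to 155592810) stood at 13.2, 14.5, 11.8, 9.95 and 13.9 CPM in Sham libraries 1 to 5 and 11.3, 9.32, 9.83, 10.5 and 10.1 CPM in TAC libraries 1 to 5. TAC libraries 2 and 3 lay below Sham, the other 3 lay in the lower part of its range, and Sham library 4 lay among them. Its fall was -0.31 ± 0.11 (adjusted p = 0.036), lost without Sham library 1, 2 or 5 or TAC library 2, 3, 4 or 5 (adjusted p = 0.066 to 0.11) and turned in sign by library size alone. Of the exon bases of Gss 15.4% overlap genes on the other strand, Acss2 among them.

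Hmox1 and Nqo1, both widely used as readouts of NRF2, were called in opposite directions, though with library size alone Nqo1 was not called and its sign turned. Hmox1 is the inducible heme oxygenase, which breaks heme into biliverdin, iron and carbon monoxide (chromosome 8, 75093621 to 75100589). It stood at 21.7, 18.5, 17.1, 18.7 and 23.9 CPM in Sham libraries 1 to 5 and 43.1, 72.1, 50.6, 72.9 and 35.8 CPM in TAC libraries 1 to 5. All TAC libraries lay above Sham, libraries 2 and 4 highest. The rise was 1.46 ± 0.20 (adjusted p = 9.6e-05), 2.75-fold. Hmox1 is also strongly expressed in macrophages, whose marker sum was higher in TAC too, as given above. Any part of macrophages in the Hmox1 rise was not tested. Nqo1, the quinone reductase (chromosome 8, 107388225 to 107403206), stood at 12.9, 15.5, 15.8, 16.1 and 21 CPM in Sham libraries 1 to 5 and 14.3, 10.9, 11.9, 11.6 and 15.0 CPM in TAC libraries 1 to 5. The groups overlapped, with Sham library 1 and TAC libraries 1 and 5 in the shared range. Nqo1 had a log2 fold change of -0.36 ± 0.14 (adjusted p = 0.043); the call was lost without any 1 of Sham libraries 2 to 5 or TAC libraries 2 to 4 (adjusted p = 0.057 to 0.12).

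The core of the antioxidant response element, TGACNNNGC, was searched on both strands in the 250 bases before each RefSeq start site (GRCm38.p6). A sequence was available for 45 of the 53 genes, with 58 windows in all. Gclc, Gsr, Gsta4, Gstm2-ps1, Gstt2, Hmox1, Prdx6 and Sod3 had none and were not searched. The core was found in 8 windows, 13.8%, against 10.2% of all 32851 windows. The 8 genes were Mt2, which rose; Gstm5, Gstm7 and Sod1, which fell; and Gclm, Gsta3, Prdx1 and Txnrd1, which were not called. Their sites are shown in the direction of the core, with the core in capitals and 6 flanking bases on each side, to set the sites of genes with different responses side by side. The Mt2 and Prdx1 sites share the same core, as do the Gstm5 and Sod1 sites and the Gstm7 and Txnrd1 sites. The Gstm7 and Txnrd1 sites lie inside the GENCODE genes (107926334 to 107931817 and 82833951 to 82897712), in windows of RefSeq starts further in. The windows just before those GENCODE gene starts held no match.
Mt2 (chr8:94172533-94172553, plus strand): ggggtgTGACTCAGCgcgggg
Gstm5 (chr3:107895806-107895826, plus strand): gcccacTGACCACGCggaggg
Gstm7 (chr3:107931729-107931749, minus strand): aagaccTGACAAAGCgaagcc
Sod1 (chr16:90220700-90220720, minus strand): tgagtcTGACCACGCccacct
Gclm (chr3:122245417-122245437, minus strand): gagagtTGACGGTGCgcccgg
Gsta3 (chr1:21240458-21240478, plus strand): caggcaTGACATTGCattttt
Prdx1 (chr4:116685460-116685480, minus strand): gggggaTGACTCAGCgctttc
Txnrd1 (chr10:82859108-82859128, minus strand): tcagaaTGACAAAGCaaaaat
A match is only a run of letters in this window and says nothing of binding.

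Metallothioneins are small cysteine-rich proteins that bind zinc and copper, and their genes lie next to each other on chromosome 8. Mt2 (chromosome 8, 94172664 to 94173568) stood at 23.8, 20.1, 19.9, 14.6 and 39.0 CPM in Sham libraries 1 to 5 and 41.9, 40.4, 38.7, 27.2 and 48.4 CPM in TAC libraries 1 to 5. Sham library 5 lay among the TAC values and TAC libraries 3 and 4 within the Sham range. Mt2 rose by 0.74 ± 0.24 (adjusted p = 0.02); the call was lost without Sham libraries 1 and 2 together (adjusted p = 0.086), and 73.5% of its exon bases overlap the antisense gene Gm45774. Mt1 (chromosome 8, 94179082 to 94180327) was the more abundant gene by count and was not called, at 84.8 ± 26.4 to 67.8 ± 19.4 CPM (SD, n = 5 each) and a log2 fold change of -0.32 ± 0.24 (adjusted p = 0.28). The share of Mt2 in the summed CPM of both genes was 16.5% to 25.9% in Sham and 31.7% to 42.7% in TAC, with no overlap, a comparison chosen after the values were seen.

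The upstream sequences of the 2 neighbours are given, with matches to the metal response element cores TGCACNC and TGCGCNC on either strand in capitals. In these 250 bases Mt2 held 3 matches and Mt1 held 1. At least 1 match occurs in 21.4% and at least 3 in 1.26% of all windows. The windows end at RefSeq starts and are placed differently against the GENCODE genes. The Mt1 window ends at 94179088, inside the gene that starts at 94179082. The Mt2 window ends at 94172617, before its gene start at 94172664. The match counts therefore cover unlike stretches, and their part in the responses was not tested.
Mt1 (chr8:94178839-94179088, plus strand): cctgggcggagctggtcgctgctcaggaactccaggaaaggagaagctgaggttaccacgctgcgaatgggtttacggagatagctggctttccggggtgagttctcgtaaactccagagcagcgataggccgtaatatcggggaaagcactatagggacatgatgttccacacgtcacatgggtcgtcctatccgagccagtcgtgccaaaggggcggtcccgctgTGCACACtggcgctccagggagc
Mt2 (chr8:94172368-94172617, plus strand): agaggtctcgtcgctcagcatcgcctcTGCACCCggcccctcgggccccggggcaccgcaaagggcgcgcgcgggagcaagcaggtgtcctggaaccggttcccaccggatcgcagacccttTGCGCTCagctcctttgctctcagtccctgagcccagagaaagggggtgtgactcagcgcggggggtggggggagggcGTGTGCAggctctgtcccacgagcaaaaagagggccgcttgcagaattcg

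Of the 18 tested glutathione S-transferases, 13 fell, none rose and 5 were not called, where 27.9% of all tested genes fell and 28.9% rose. Their median log2 fold change was -0.73, and 8 fell by at least 1, where 8.10% of all genes did. At an unadjusted p under 0.05 edgeR gave 0 higher and 14 lower, DESeq2 called 0 higher and 15 lower of 20, and limma voom 0 higher and 13 lower (1 higher unadjusted); with library size alone 1 was higher (Gstt3, adjusted p = 0.0046) and 9 were lower. The summed CPM of all 22 genes went from 1005 ± 106 to 426 ± 53.8 (SD, n = 5 each), 2.36-fold lower. TAC library 1 was the highest of its group, at 509 CPM against a lowest Sham sum of 873. The rule leaves out the microsomal and other transferases given below. Of 7 tested there, 2 rose, Hpgds among them, and 2 fell.

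**Figure D4:**
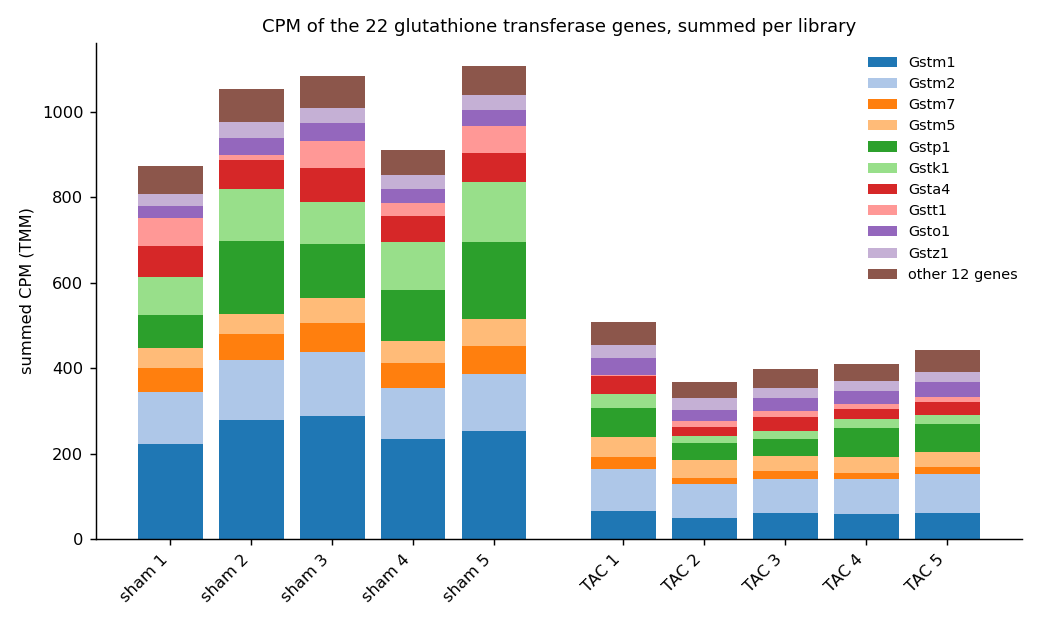
Summed CPM of the 22 GST genes in each of the 10 libraries, split into 10 named genes and the other 12. The Sham sums run from 873 to 1106 CPM and the TAC sums from 367 to 509, and the Gstm1 band is the widest in Sham.

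The mu class sits in a cluster on chromosome 3, in the order Gstm5, Gstm7, Gstm6, Gstm3, Gstm2, Gstm1 and Gstm4, and all 6 tested genes fell; with library size alone the falls of Gstm4 and Gstm5 were not called. Gstm1 (chromosome 3, 108012255 to 108017973), the most abundant GST by count in Sham, stood at 223, 280.1, 289, 235 and 252 CPM in Sham libraries 1 to 5 and 67.0, 49.7, 62.7, 59.2 and 61.2 CPM in TAC libraries 1 to 5. The groups lay far apart, and the spread within each was small beside the gap. The mean went from 256 ± 28.2 to 59.9 ± 6.42 CPM (SD, n = 5 each), a log2 fold change of -2.09 ± 0.10 (adjusted p = 2.4e-07). Of Gstm1's 50-base stretches 23.1% occur in other mu genes or pseudogenes.

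Gstm2, its neighbour (chromosome 3, 107981702 to 107986453), stood at 121, 139.7, 151, 119.8 and 134 CPM in Sham libraries 1 to 5 and 97.2, 79.6, 79.5, 80.9 and 91.3 CPM in TAC libraries 1 to 5. The groups were apart, but by less, and the fall was -0.63 ± 0.09 (adjusted p = 9.9e-05). So Gstm1 gave 47.7% of the mu class in Sham and 26.6% in TAC, while Gstm2 gave 24.8% and 38.1%. The log2 ratio of Gstm1 over Gstm2 went from 0.94 ± 0.05 to -0.52 ± 0.13, with no overlap.

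Gstm7 (chromosome 3, 107926334 to 107931817) stood at 57.4, 60.2, 65.8, 58.6 and 66.4 CPM in Sham libraries 1 to 5 and 27.2, 13.1, 18.8, 15.6 and 17.4 CPM in TAC libraries 1 to 5. All TAC libraries lay below Sham, library 1 the highest of them, and the fall was -1.74 ± 0.17 (adjusted p = 8.0e-06). Gstm6 (chromosome 3, 107938847 to 107943749) stood at 11.5, 8.88, 19.9, 8.76 and 6.27 CPM in Sham libraries 1 to 5 and 5.55, 4.71, 5.83, 4.49 and 4.99 CPM in TAC libraries 1 to 5. Sham spread widely, with library 3 highest, and library 5 just above the TAC range; the fall was -1.12 ± 0.26 (adjusted p = 0.0036).

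Gstm5 and Gstm4 lie at the ends of the cluster and fell least. Gstm5 (chromosome 3, 107895821 to 107898686) stood at 45.8, 47.8, 58.9, 49.8 and 61.3 CPM in Sham libraries 1 to 5 and 47.3, 43.8, 34.0, 37.8 and 34.5 CPM in TAC libraries 1 to 5. TAC library 1 lay above Sham library 1, the only overlap. Its log2 fold change was -0.42 ± 0.12 (adjusted p = 0.0088). Gstm4 (chromosome 3, 108040408 to 108044894) stood at 20.4, 20.3, 22.8, 20.2 and 22.1 CPM in Sham libraries 1 to 5 and 16.9, 16.7, 15.6, 15.0 and 18.0 CPM in TAC libraries 1 to 5. The narrow ranges did not overlap, and the change was -0.36 ± 0.08 (adjusted p = 0.0017); with library size alone the adjusted p was 0.61 for Gstm5 and 1 for Gstm4.

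Gstk1, the kappa-class enzyme of mitochondria and peroxisomes (chromosome 6, 42245935 to 42250447), had the largest fall of the 46 genes. It stood at 89.5, 121, 99.0, 112 and 141 CPM in Sham libraries 1 to 5 and 32.9, 15.4, 18.4, 20.8 and 20.1 CPM in TAC libraries 1 to 5. TAC library 1 was the highest of its group and still far below Sham. Gstk1 went from 112 ± 19.9 to 21.5 ± 6.68 CPM (SD, n = 5 each), -2.39 ± 0.20 (adjusted p = 4.3e-06) on the log2 scale, 5.23-fold lower.

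Gstt1, a theta-class enzyme acting on small halogenated compounds (chromosome 10, 75783813 to 75798584), stood at 65.7, 11.8, 62.7, 30.1 and 64.6 CPM in Sham libraries 1 to 5 and 3.72, 14.1, 14.8, 12.2 and 11.5 CPM in TAC libraries 1 to 5. Sham libraries 1, 3 and 5 were high, library 4 intermediate, and library 2 within the TAC range. Gstt1 fell by 2.06 on the log2 scale (SE 0.48, adjusted p = 0.0036). Its neighbours Gstt2 (14.6 ± 2.81 to 9.68 ± 3.82 CPM) and Gstt3 (3.53 ± 0.437 to 4.16 ± 0.382 CPM; SD, n = 5 each) were not called, with log2 fold changes of -0.59 ± 0.24 and 0.24 ± 0.13 and adjusted p of 0.059 and 0.15; Gstt2 was called lower without Sham library 5 or TAC library 1 (adjusted p = 0.0044 to 0.048), and with all libraries by DESeq2 (adjusted p = 0.042) and limma voom (adjusted p = 0.0071).

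Gstp1 and Gstp2, the pi-class pair on chromosome 19, share sequence: 62.3% of Gstp1's and 72.6% of Gstp2's 50-base stretches occur in another gene, so their split is uncertain. Gstp1 (chromosome 19, 4035407 to 4037985) stood at 76.0, 169, 127, 120.5 and 180.3 CPM in Sham libraries 1 to 5 and 69.2, 39.6, 40.2, 66.1 and 65.3 CPM in TAC libraries 1 to 5. Sham library 1 was the lowest of its group and just above the highest TAC library. The fall was -1.26 ± 0.24 (adjusted p = 0.0011). Gstp2 (chromosome 19, 4040285 to 4046023) stood at 3.60, 6.58, 4.83, 3.79 and 7.92 CPM in Sham libraries 1 to 5 and 1.57, 1.15, 1.66, 1.56 and 1.90 CPM in TAC libraries 1 to 5. It was low in all libraries, lower in every TAC one, and fell by 1.77 (SE 0.24, adjusted p = 9.4e-05) on the log2 scale.

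Gsta4, the alpha-class enzyme that conjugates the lipid peroxidation product 4-hydroxynonenal (chromosome 9, 78182774 to 78209349), stood at 71.8, 69.6, 79.8, 61.3 and 66.8 CPM in Sham libraries 1 to 5 and 40.7, 20.5, 31.9, 24.8 and 31.7 CPM in TAC libraries 1 to 5. Every TAC library lay below every Sham library, and the fall was -1.22 ± 0.16 (adjusted p = 6.8e-05), 2.33-fold. Gsta3 (11.0 ± 4.68 to 7.55 ± 2.87 CPM; SD, n = 5 each) and Gsta1 (0 to 0.942 CPM in Sham, 0.199 to 0.558 in TAC) were not called, at -0.54 ± 0.33 (adjusted p = 0.19) and -0.51 ± 0.56 (adjusted p = 0.46). Gstz1, the zeta-class enzyme of tyrosine breakdown (chromosome 12, 87147165 to 87164723), stood at 28.8, 36.1, 33.7, 33.9 and 34.0 CPM in Sham libraries 1 to 5 and 31.0, 27.5, 23.2, 23.7 and 22.8 CPM in TAC libraries 1 to 5. TAC library 1 lay above Sham library 1, and the change was -0.38 ± 0.10 (adjusted p = 0.0067), lost with library size alone (adjusted p = 0.85).

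The omega class lies on chromosome 19. Gsto1 was not called (36.1 ± 5.75 to 32.1 ± 5.11 CPM; SD, n = 5 each), at a log2 fold change of -0.17 ± 0.13 (adjusted p = 0.29). Gsto2, at 0.447 to 1.5 CPM in Sham and 0.422 to 0.681 in TAC, had -0.83 ± 0.32 (adjusted p = 0.044), lost without Sham library 1, 3 or 5 or TAC library 2, 4 or 5 (adjusted p = 0.079 to 0.13).

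Further genes of these pathways were read from the same fit, 102 listed in 8 groups and 95 tested. Of these 24 rose and 37 fell, 64.2% called against 56.8% of all genes, with a median log2 fold change of -0.16. With library size alone 39 rose and 16 fell. Over all tested genes 28.9% rose and 27.9% fell, the shares to set beside the counts of each list below. These lists were chosen with earlier results of these data known, so the counts are given as a description. Among 13 tested sources of superoxide and hydrogen peroxide 9 rose and 2 fell (10 and 2 with library size alone), with a median of 1.56. Lox, the collagen-crosslinking oxidase that releases hydrogen peroxide (3.97 ± 0.34, adjusted p = 6.1e-06), and Nox4, an NADPH oxidase that makes hydrogen peroxide (2.89 ± 0.27, adjusted p = 6.6e-06), rose. Maob, the mitochondrial monoamine oxidase (-2.17 ± 0.08, adjusted p = 5.1e-08), and Aox1, an aldehyde oxidase (-1.0 ± 0.14, adjusted p = 9.6e-05), fell.

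Among NRF2 control genes none was called higher. Of 9, 0 rose and 4 fell by edgeR (0 higher at an unadjusted p under 0.05), 0 and 4 by DESeq2, 0 and 3 by limma voom, and 1 and 0 with library size alone. The NRF2 partner Mafg (-0.40 ± 0.09, adjusted p = 0.003) and the NRF2 inhibitor Keap1 (-0.30 ± 0.07, adjusted p = 0.0051) fell, as did Nfe2l2, which encodes NRF2 (-0.38 ± 0.12, adjusted p = 0.021), and Sqstm1, which binds KEAP1 (-0.28 ± 0.11, adjusted p = 0.049).

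Cystine and glutathione turnover had 1 higher and 8 lower of 15 (2 and 5 with library size alone). Oplah, the 5-oxoprolinase of glutathione salvage (-0.87 ± 0.07, adjusted p = 4.1e-06), and Dpep1, a dipeptidase (-1.51 ± 0.17, adjusted p = 2.3e-05), fell. Ggt1, which cleaves glutathione outside the cell, rose from a low level, 0.0586 to 0.392 CPM (2.48 ± 0.52, adjusted p = 0.0017). NADPH supply had 4 higher and 5 lower of 12 (6 and 2 with library size alone). The cytosolic Nadk, which phosphorylates NAD (0.34 ± 0.07, adjusted p = 0.0011), and Pgd of the pentose phosphate pathway (0.41 ± 0.07, adjusted p = 0.00067) rose. The mitochondrial Nadk2 (-1.40 ± 0.10, adjusted p = 1.2e-06) and mitochondrial malic enzyme Me3 (-1.29 ± 0.13, adjusted p = 1.3e-05) fell.

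Thiol reductases and repair had 4 higher and 10 lower of 19 (7 and 5 with library size alone). Txndc5 (1.11 ± 0.08, adjusted p = 1.7e-06) and Txndc12 (0.56 ± 0.07, adjusted p = 7.5e-05), thioredoxin-like proteins of the endoplasmic reticulum, rose. The methionine sulfoxide reductases Msrb2, mitochondrial (-1.47 ± 0.13, adjusted p = 4.1e-06), and Msra (-0.66 ± 0.07, adjusted p = 1.7e-05) fell. Microsomal and other transferases had 2 higher and 2 lower of 7 (3 and 1 with library size alone), with Hpgds, the prostaglandin D synthase (1.48 ± 0.23, adjusted p = 0.00019), and Gstcd (0.52 ± 0.11, adjusted p = 0.0018) higher and Mgst3 (-0.73 ± 0.13, adjusted p = 0.00047) and Ptges2 (-0.35 ± 0.14, adjusted p = 0.043) lower.

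Iron, heme and metal genes had 2 higher and 5 lower of 11 (5 and 1 with library size alone). The copper chaperone Atox1 (0.58 ± 0.08, adjusted p = 0.00012) and the ferritin light chain Ftl1 (0.38 ± 0.11, adjusted p = 0.011) rose, while the constitutive heme oxygenase Hmox2 (-0.40 ± 0.07, adjusted p = 0.00037) and the zinc exporter Slc30a1 (-0.31 ± 0.08, adjusted p = 0.0041) fell. Selenoprotein synthesis, on which Gpx1 to Gpx4 depend, had 2 higher and 1 lower of 9 (5 and 0 with library size alone). Sephs1 (0.81 ± 0.09, adjusted p = 2.4e-05) and the selenoprotein P receptor Lrp8 (2.82 ± 0.38, adjusted p = 0.00012) rose, and Trnau1ap (-0.31 ± 0.10, adjusted p = 0.019) fell.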

How the data were processed

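Total RNA of 10 left atrial libraries was sequenced. The deposited values are raw read counts per gene symbol for each library, made by the authors; per the submitters' processing notes bcl2fastq, STAR and the mm10 build were used. The counter was not given in the sources used here, nor its strand setting and annotation. Tally rows that name no gene, 25.9% to 29.1% of reads, were left out.

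Genes were matched by symbol to GENCODE M21 (46361 of 48397 symbols, all 53 members), which gave positions, exon lengths and, from its transcripts, 50-base stretches shared with other genes. Counts were filtered (filterByExpr), scaled by TMM and tested with edgeR 4.0.16 (glmQLFit, robust, and glmQLFTest) in R 4.3.3; limma 3.58.1 (voom) and DESeq2 1.42.0 were alternatives, beside other scalings and filters, a replicate block and leaving libraries out. Fold changes are TAC over Sham, ± standard error. On simulated counts for this comparison (15033 genes) the test recovered 36% of 1.5-fold, 75% of 2-fold and 96.5% of 4-fold changes, and 2.99% of 134 calls were false. Only 75, 64 and 57 tested genes were changed by these folds, in random directions and without a shift between groups in scaling. In the data 8616 of 15175 genes were called, so the simulated rates do not carry over to it. Libraries of a group differed by more than sampling noise.

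The members and lists were chosen with earlier results of these data known. Values in every library are given for called members at a mean of at least 5 CPM in either group or a log2 change of at least 1; from each pathway list up to 2 called genes per direction with the smallest adjusted p are named, and Nfe2l2 and Sqstm1 besides, after their values were seen. Protein sequences were not used here.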

Additional observations from a re-analysis of the deposited data

Results flagged for a closer look

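In 7 of 92 groups (46 genes in Sham and in TAC) 1 library lay far from the other 4, by Dixon's gap ratio against 0.71; chance gives about 1 in 20, or 4.6. TAC library 1 accounted for 5, each with the highest value of its group. Its Prdx2 level was 382.5 CPM, where the other TAC libraries ran from 243.3 to 260.0. For Prdx3 it held 175.9 CPM against 95.1 to 106.1, and for Prdx5 257.6 CPM against 173.7 to 186.5. Its Txn2 value of 206.8 CPM compared with 122.1 to 141.4, and its Txnrd2 value of 17.46 CPM with 14.18 to 14.86. Prdx3, Txn2 and Txnrd2 encode mitochondrial proteins, and this library also held the most cardiomyocyte marker reads of its group; the part of the one in the other was not tested. Gpx8 in TAC library 2 was 81.94 CPM, above 57.04 to 61.53 in the rest. Gpx4 in Sham library 3 was 219.8 CPM, above 167.2 to 181.9.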

How the results depend on the processing

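Of the 33 called members 22 kept their call under all 22 alternatives: 9 of 10 higher (all but Mt2) and 13 of 23 lower. Library size alone was the only setting to move any count of called genes by over 1.5 times. There 7741 genes were higher and 1929 lower, 15 members were higher and 13 lower, and 39 pathway genes were higher and 16 lower. Signs turned there for Cat (0.11), Gclc (0.12), Gss (0.051), Gsto1 (0.19), Mt1 (0.043), Nqo1 (0.015), Prdx1 (0.17), Prdx2 (0.036), Prdx6 (0.067) and Txnrd1 (0.32); Txnrd1 also turned with upper-quartile factors (0.0089) and Gsta1 with limma voom (0.014). Calls were lost under library size and at least 1 other scaling, filter or tool for Gss, Gsto2, Nqo1 and Prdx6, and with no filter for Mt2 (adjusted p = 0.054). Leaving out 1 library at a time gave 4136 to 4602 genes higher and 3762 to 4224 lower, 10 to 12 members higher and 20 to 27 lower, and 23 to 25 pathway genes higher and 27 to 35 lower. With longest transcripts in place of exon length, Gpx3 in TAC was 13.0 times the next member per kilobase, not 19.8. Libraries with the same replicate number showed no sign of pairing (correlations of deviations -0.04 to 0.08, with 1 of 5 matching its own number best). A weak pairing could be missed by this check, and the sample titles do not state any. With the replicate block 4103 genes were higher and 3917 lower, 10 members higher and 21 lower, and 24 pathway genes higher and 33 lower, and Mt1 was called lower (adjusted p = 0.034). Leaving out TAC library 1 with Sham libraries 1 and 2 was added after seeing the data. Gsta1 had 128 and Gsto2 227 reads over 10 libraries, which limits their precision.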

Other observations

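In each group the library lowest in the theta-class gene Gstt1 was the highest in its neighbour Gstt2, a pattern picked after the values were seen and not tested. Sham library 2 had the lowest Gstt1 of its group, 11.8 CPM, and the highest Gstt2, 19.0 CPM. TAC library 1 likewise had the lowest Gstt1, 3.72 CPM, and the highest Gstt2, 15.7 CPM. Both genes lie on the minus strand of chromosome 10, with Gstt4 between them at no read in any library.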
